A study of Rattus norvegicus with 12 samples.

Results

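Fatty acid and triglyceride synthesis was followed through 36 genes in rat insulinoma cells that carried a control virus or the transcription factor ChREBPβ at low or high glucose. The genes were taken by name from the deposited count table and cover the route from citrate export to stored triglyceride and its breakdown. All 36 were in the table of 28727 named genes, and 33 of them were among the 14669 genes with enough reads to be tested. Thrsp, Elovl6 and Plin3 had too few reads and are described by their counts only.

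The cells were INS-1 832/13, a clonal line derived from a rat insulinoma that secretes insulin in response to glucose. They were transduced with an adenovirus expressing GFP, the control, or an adenovirus expressing ChREBPβ, and were cultured in 2 mM or 11 mM glucose for 48 h. ChREBPβ is a shorter product of Mlxipl. The study describes it as constitutively active, without the low glucose inhibitory domain of the full-length product, which answers to glucose. Each of the 4 groups (GFP at 2 mM, GFP at 11 mM, ChREBPβ at 2 mM and ChREBPβ at 11 mM) had 3 libraries of amplified RNA, lettered a, b and c, 12 in all. The study describes its RNAseq values as averages of independent experiments, while the labels give the letters only. The p-values set differences between groups against the spread between the libraries of a group. All cells, controls included, carried a virus, and the ChREBPβ construct was a tagged mouse sequence.

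In lipogenesis, citrate leaves the mitochondrion and is cleaved to cytosolic acetyl-CoA, which acetyl-CoA carboxylase turns into malonyl-CoA and fatty acid synthase builds into palmitate. Elongases and desaturases then modify the chain, acyl-CoA synthetases activate it, and a series of acyltransferases and phosphatidate phosphatases assembles triglyceride, which is kept in droplets and released again by lipases. ChREBP and SREBP-1c are the transcription factors best known for driving these genes in liver, where carbohydrate feeding raises them, and in beta cells malonyl-CoA is also known as a signal in fuel metabolism.

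Promoter sequences are shown for 5 members to give the regulatory context of large increases, of a decrease and of the E-box matches among the members. They come from RefSeq on the GRCr8 assembly of the rat and run from 250 bases before to 50 bases after the start of the listed transcript, so each holds upstream flank and the first transcribed bases. Genes can have other starts than the listed one. Capitals mark the motifs searched on both strands, the E-box CACGTG and the CCAAT box (ATTGG when it lies on the other strand). Acly and Lpin1 are shown as members that increased with ChREBPβ and whose windows hold a CCAAT box, Plin2 as an increased member with an E-box, Elovl5 as the other member with an E-box, and Pnpla3 as a member that decreased.
Acly, chr10:85963582-85963881, minus strand: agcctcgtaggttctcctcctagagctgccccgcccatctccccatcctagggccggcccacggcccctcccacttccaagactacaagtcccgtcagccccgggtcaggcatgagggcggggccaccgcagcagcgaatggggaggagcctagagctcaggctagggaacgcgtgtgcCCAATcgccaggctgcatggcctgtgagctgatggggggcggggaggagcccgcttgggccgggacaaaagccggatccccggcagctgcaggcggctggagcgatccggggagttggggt
Lpin1, chr6:45108893-45109192, minus strand: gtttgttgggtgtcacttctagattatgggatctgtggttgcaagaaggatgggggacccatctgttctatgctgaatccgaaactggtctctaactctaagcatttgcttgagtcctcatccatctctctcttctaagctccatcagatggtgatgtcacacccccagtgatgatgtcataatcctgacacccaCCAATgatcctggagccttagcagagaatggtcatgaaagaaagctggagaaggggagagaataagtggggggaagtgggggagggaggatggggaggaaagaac
Plin2, chr5:106228969-106229268, minus strand: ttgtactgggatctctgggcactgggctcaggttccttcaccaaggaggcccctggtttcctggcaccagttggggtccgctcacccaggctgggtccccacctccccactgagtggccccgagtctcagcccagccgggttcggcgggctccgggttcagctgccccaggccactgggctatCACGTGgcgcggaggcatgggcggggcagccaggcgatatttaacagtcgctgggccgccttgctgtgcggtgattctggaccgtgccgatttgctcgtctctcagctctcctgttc
Elovl5, chr8:87670914-87671213, plus strand: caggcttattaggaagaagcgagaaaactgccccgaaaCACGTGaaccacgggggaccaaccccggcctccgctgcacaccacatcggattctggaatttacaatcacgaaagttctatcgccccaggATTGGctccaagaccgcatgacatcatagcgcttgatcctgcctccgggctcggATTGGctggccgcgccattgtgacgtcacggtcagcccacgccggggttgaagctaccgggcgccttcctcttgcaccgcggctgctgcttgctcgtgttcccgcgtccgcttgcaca
Pnpla3, chr7:117173278-117173577, plus strand: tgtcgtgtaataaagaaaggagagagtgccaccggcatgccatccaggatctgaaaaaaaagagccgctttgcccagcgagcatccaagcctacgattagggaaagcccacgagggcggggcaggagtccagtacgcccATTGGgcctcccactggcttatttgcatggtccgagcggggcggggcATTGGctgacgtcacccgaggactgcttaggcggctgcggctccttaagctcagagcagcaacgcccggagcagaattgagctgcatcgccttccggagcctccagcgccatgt

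A window was given for 30 of the 36 members, and Acaca, Fasn, Elovl6, Dgat1, Dgat2 and Lipe had none in the reference table. CACGTG, the core that ChREBP and other basic helix-loop-helix factors bind, was present in 2 of the 30 windows, 67 bases before the start in Plin2 and 212 bases before it in Elovl5, and in 6.65% of all 27457 promoters of the same length. A carbohydrate response element in the form of CANGNG and CNCNTG separated by 5 bases was found in 0 of the 30 and in 0.52% of all promoters. The sterol response element in the form TCACNCCAC was also found in 0 of the 30, against 1.13% of all promoters. CCAAT was in 16 of the 30 windows and in 37.74% of all promoters. It was in 6 of the 9 members with a window that increased with ChREBPβ at both glucose concentrations, in 2 of the 5 that decreased at both and in 8 of the other 16. These matches describe the letters of the windows and no binding was measured here.

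Library totals ranged from 25754488 to 60531215 counts on named genes, and values are given in CPM, counts scaled by library size and TMM factor, with factors between 0.958 and 1.06. CPM are not corrected for transcript length, so levels are compared between libraries and not between genes. Changes were tested with edgeR's quasi-likelihood test over all tested genes, and a gene was called higher or lower if its p, adjusted by Benjamini and Hochberg's method, was under 0.05 and it differed at least 1.2-fold. SE stands for standard error. The rat Mlxipl count did not rise with the virus. It was 240 to 277 CPM with GFP and 199 to 212 CPM in the libraries labelled ChREBPβ at 2 mM (log2 fold change -0.33, edgeR adjusted p = 2.03e-05), and 202 to 212 against 181 to 201 CPM at 11 mM (log2 fold change -0.14, adjusted p = 0.0295). A separate row named ChREBPb was higher with the virus, at 73.2 to 82.2 against 89.6 to 90.7 CPM at 2 mM (log2 fold change 0.21, under 1.2-fold, adjusted p = 0.00841) and 64.7 to 73.3 against 81.4 to 98.2 CPM at 11 mM (log2 fold change 0.37, adjusted p = 6.90e-05). The sources used here do not say what sequence that row counts, so the groups are named by their labels. Of 10 beta-cell markers all 10 were in the table, and their sum was 23430 to 26360 CPM with GFP at 2 mM, 19044 to 20895 with GFP at 11 mM, 12679 to 13083 with ChREBPβ at 2 mM and 11976 to 12531 with ChREBPβ at 11 mM. Markers of other islet cells, nearly all of it Gcg, summed to 1590 to 1720 CPM with GFP and 431 to 503 with ChREBPβ. Adipocyte markers (4 of 4 in the table, Lep at 0 in every library) summed to 6.91 to 9.29 CPM with GFP at 2 mM, 6.97 to 7.07 with GFP at 11 mM, 4.88 to 6.41 with ChREBPβ at 2 mM and 4.64 to 5.39 with ChREBPβ at 11 mM. Those of hepatocytes (4 of 4, Cyp7a1 at 0) reached at most 0.222 CPM, those of blood cells (3 of 3, Ptprc at 0) 1.11, of endothelium (2 of 3) 1.86, of fibroblasts (2 of 3) 8.81 and of exocrine pancreas (3 of 4, Prss1 at 0) 0.0423. The sums of beta-cell, other islet and adipocyte markers were thus lower with ChREBPβ at both concentrations. The adipocyte sum was nearly all Cidec, a lipid droplet gene of the further list described below. Cidec was at 6.69 to 8.94 CPM with GFP and 4.74 to 6.23 with ChREBPβ at 2 mM. At 11 mM it was at 6.64 to 6.70 and 4.42 to 5.29 CPM. Plin1 overlapped between the viruses at both concentrations and Adipoq at 2 mM. The sums of hepatocyte and exocrine pancreas markers overlapped between the viruses. Blood-cell markers were higher with ChREBPβ at 2 mM (0.353 to 0.551 CPM with GFP and 0.627 to 1.11 with ChREBPβ). Fibroblast markers were lower at 2 mM only and endothelial markers at 11 mM only. Of the 10 beta-cell markers 1, the glucose transporter gene Slc2a2, went the other way (422 to 449 CPM with GFP and 604 to 638 with ChREBPβ at 2 mM, 477 to 507 and 663 to 683 at 11 mM). The part of these marker changes in the results of the members described next was not tested.

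With ChREBPβ at 2 mM glucose, 16 of the 33 tested members were called, 11 higher and 5 lower. The largest ratio was that of the desaturase Scd, which rests on very few counts. It was followed by the enzymes that supply and build the first saturated chain, namely Acaca (acetyl-CoA carboxylase), Fasn (fatty acid synthase) and Acly (ATP citrate lyase), and then by Lpin1, Plin2, Mid1ip1, Acss2, Scd2, Acsl1 and Acsl3. The 5 lower members were Pnpla3, Elovl2, Fads1, Elovl7 and Acsl4. At 11 mM the counts were again 16 called, 11 higher and 5 lower, and the same 16 members were called in the same direction in both comparisons, which share no library. Over all tested genes, 4144 were called in the same direction at both concentrations, 64.0% of the 6476 called at 2 mM and 84.5% of the 4904 called at 11 mM.

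These counts stood against a large change of the whole transcriptome. At 2 mM 44.1% of all tested genes were called, 21% higher and 23.2% lower, and at 11 mM 33.4% were called, 14.3% higher and 19.1% lower. The share of tested members called higher was 33.3% in both comparisons. Without Scd, which had enough reads for a test only through the ChREBPβ groups, 10 of 32 were called higher and 5 lower at each concentration. The median log2 fold change of the tested members was 0.16 at 2 mM and 0.13 at 11 mM, against a median of -0.02 over all tested genes in each comparison. The 3 libraries of the groups did not overlap for 25 of the 33 members at 2 mM (17 higher, 8 lower) and for 27 at 11 mM (18 higher, 9 lower), beside 63.3% and 56.1% of all tested genes. Scaling by library totals in place of TMM gave 10 members higher and 8 lower at 2 mM and 10 higher and 6 lower at 11 mM, and it moved the share of all calls that were higher from 47.5% to 33.2% at 2 mM and from 42.9% to 29.3% at 11 mM. In bulk RNA, a lower value from fewer cells of a kind cannot be told apart from less RNA per cell.

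**Figure D1:**
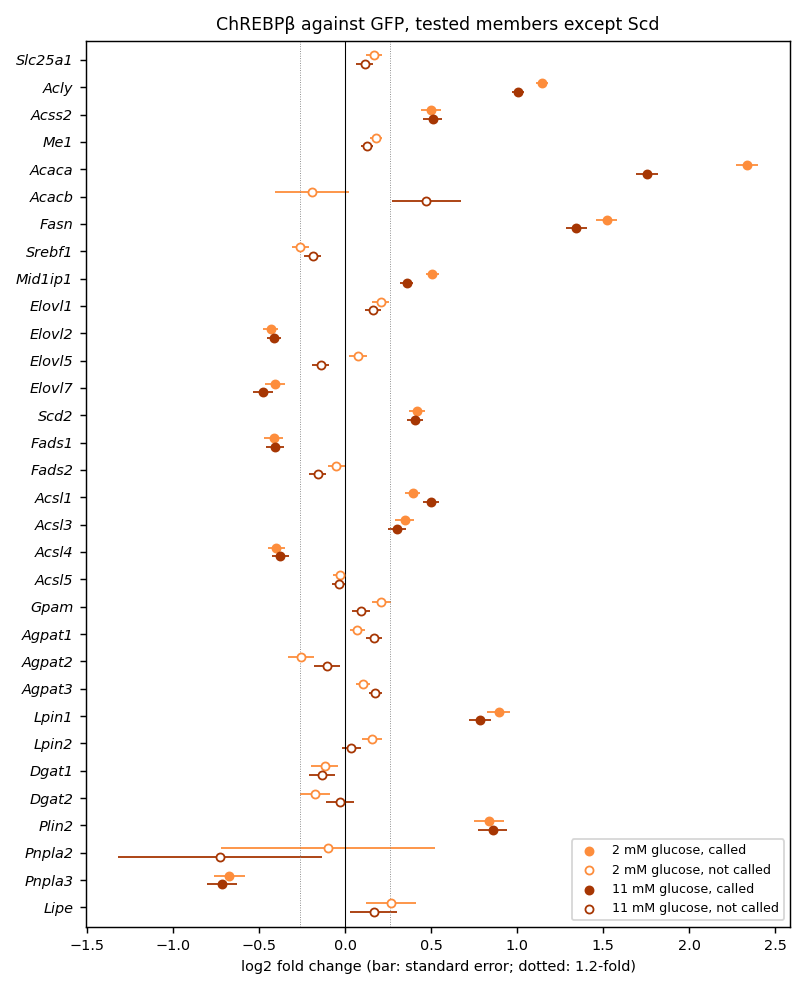
Log2 fold change of ChREBPβ against GFP (horizontal axis) for the 32 tested members other than Scd, in the order of the pathway, at 2 mM (light) and 11 mM glucose (dark). Bars are standard errors, filled points are called and dotted lines mark 1.2-fold; Acaca, Fasn and Acly lie farthest to the right and Pnpla3 is the called member farthest to the left at both concentrations.

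As a share of all counts, the 36 members took 0.756% to 0.787% with GFP at 2 mM, 0.836% to 0.866% with GFP at 11 mM, 1.197% to 1.212% with ChREBPβ at 2 mM and 1.25% to 1.31% with ChREBPβ at 11 mM. Acly, Fasn and Scd2, singled out after their values were seen, held 0.484% to 0.511% with GFP at 2 mM and 0.894% to 0.906% with ChREBPβ at 2 mM. The other members together held 0.271% to 0.277% with GFP and 0.303% to 0.306% with ChREBPβ at 2 mM, so most of the added counts lay in these 3 genes. Replicates were close, with a median coefficient of variation of 3.86% (range 0.324% to 20.2%) over the 120 combinations of member and group with a mean of at least 5 CPM.

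The supply of cytosolic acetyl-CoA and NADPH rests on Slc25a1, the mitochondrial citrate carrier, Acly, Acss2, which makes acetyl-CoA from acetate, and Me1, the cytosolic malic enzyme. Of these 4, Acly and Acss2 rose with ChREBPβ at both concentrations. Acly in GFP cells was at 2240, 2285 and 2369 CPM in low glucose (2 mM) and at 2715, 2682 and 2785 CPM in high glucose (11 mM). With ChREBPβ it was at 5029, 5134 and 5088 CPM at 2 mM and at 5416, 5412 and 5580 at 11 mM. Every ChREBPβ library was above every GFP library, and the groups of each virus did not overlap between glucose concentrations either. The increase was 2.21-fold at 2 mM (log2 fold change 1.15 ± 0.04 SE, edgeR adjusted p = 5.63e-16) and 2.01-fold at 11 mM (log2 fold change 1.00 ± 0.04 SE, adjusted p = 7.97e-15). Acss2 rose from 29.2–32.7 CPM to 43.2–43.8 CPM at 2 mM (1.41-fold, adjusted p = 4.07e-07) and from 29.6–34.1 to 43.8–45.6 at 11 mM (1.42-fold, adjusted p = 2.68e-07). Me1 (log2 fold changes 0.18 and 0.13, adjusted p = 0.000372 and 0.00756) stayed under 1.2-fold, as did Slc25a1 (0.17 and 0.11, adjusted p = 0.00576 and 0.0569).

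Acaca and Fasn, which build the chain itself, had the largest changes of the members other than the low-count Scd. Acaca, the cytosolic acetyl-CoA carboxylase that commits acetyl-CoA to synthesis, had 109, 94.4 and 106 CPM in the GFP libraries of 2 mM glucose and 154, 183 and 173 CPM in those of 11 mM. With ChREBPβ it was at 514, 531 and 518 CPM at 2 mM and at 612, 577 and 531 at 11 mM. All ChREBPβ libraries lay above all GFP libraries, and the groups with GFP did not overlap each other either. The increase with ChREBPβ was 5.05-fold at 2 mM (log2 fold change 2.34 ± 0.06 SE, edgeR adjusted p = 1.15e-16) and 3.37-fold at 11 mM (log2 fold change 1.75 ± 0.06 SE, adjusted p = 1.08e-14).

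Fasn, which carries out every step from malonyl-CoA to palmitate on a single polypeptide, had 562, 509 and 640 CPM in GFP cells at 2 mM and 636, 693 and 633 CPM at 11 mM. With ChREBPβ the values were 1606, 1623 and 1672 CPM at 2 mM and 1752, 1657 and 1572 at 11 mM. The ranges of both GFP groups overlapped, as did those of both ChREBPβ groups, whereas each ChREBPβ library was above each GFP library. Fasn rose 2.87-fold at 2 mM (log2 fold change 1.52 ± 0.06 SE, edgeR adjusted p = 6.47e-14) and 2.54-fold at 11 mM (log2 fold change 1.34 ± 0.06 SE, adjusted p = 6.94e-13). Acacb, the carboxylase at the mitochondrial membrane whose malonyl-CoA restrains fatty acid oxidation, was low, with 1.06 to 1.91 CPM over all libraries, and was not called (log2 fold changes -0.19 and 0.47, adjusted p = 0.467 and 0.0561). At 11 mM it was called higher with RLE factors (0.49) and without library c of ChREBPβ (0.56).

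The regulators differed among themselves. Mid1ip1, a small protein that promotes the polymerisation of acetyl-CoA carboxylase, rose from 296–303 CPM to 421–429 CPM at 2 mM (1.42-fold, edgeR adjusted p = 7.56e-10) and from 341–367 to 453–467 CPM at 11 mM (1.28-fold, adjusted p = 1.63e-07). Srebf1, which encodes SREBP-1, was at 139 to 161 CPM with GFP and 119 to 127 with ChREBPβ at 2 mM and at 136 to 143 and 119 to 127 at 11 mM. Its groups did not overlap and its adjusted p was 0.000188 and 0.00382, but the log2 fold changes of -0.26 and -0.19 were under 1.2-fold. It was called lower when libraries were scaled by their totals (log2 fold changes -0.36 and -0.27), and at 2 mM also without library a (-0.30) or b (-0.28) of GFP or a or c (both -0.27) of ChREBPβ. Thrsp, a relative of Mid1ip1, had 0 to 5 counts per library.

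Acetyl-CoA carboxylase, fatty acid synthase and ATP citrate lyase are shown library by library with other called members in the plot of levels.

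**Figure D2:**
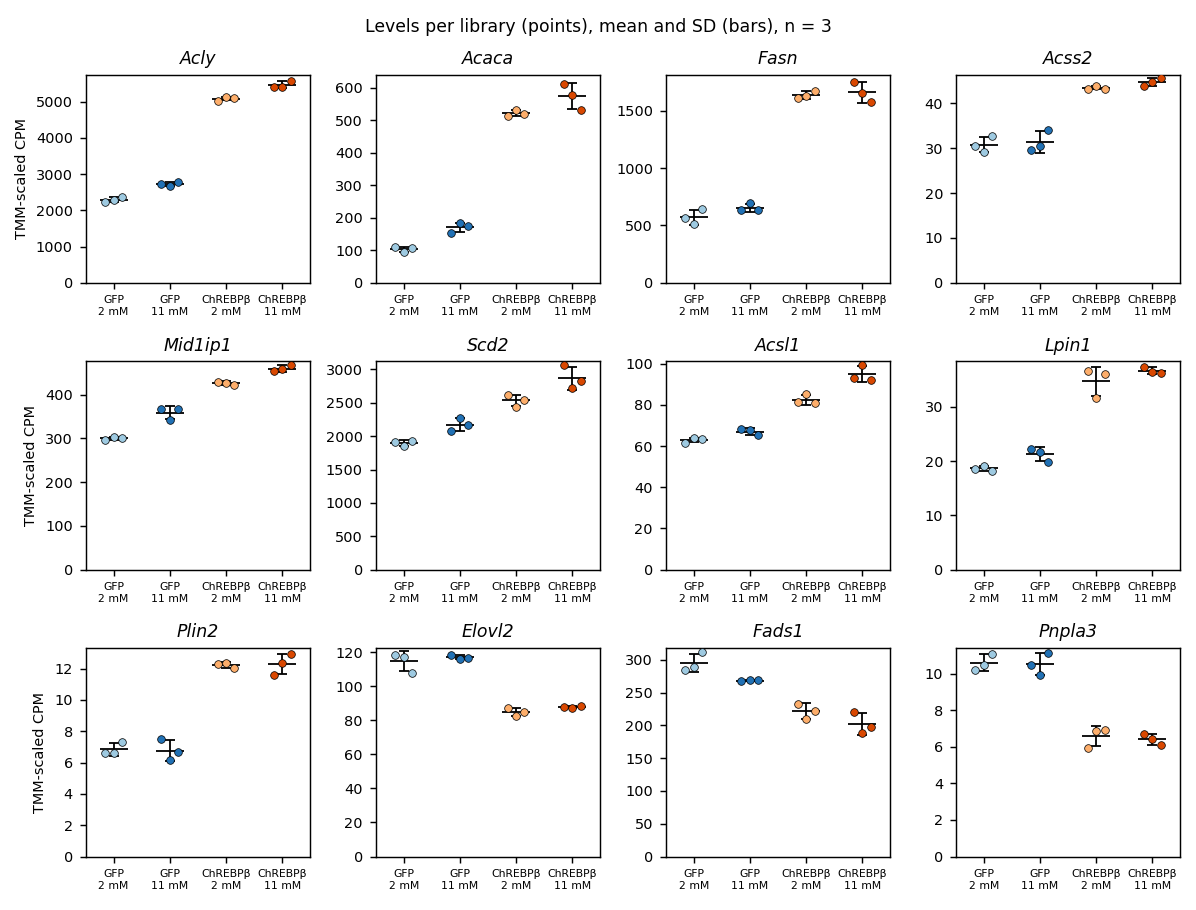
TMM-scaled CPM (vertical axes from 0) of 12 called members in the 3 libraries of each group (points), with the group mean and SD (horizontal line and bars). The 3 libraries of both ChREBPβ groups lie above all GFP libraries for Acly, Acaca, Fasn, Acss2, Mid1ip1, Scd2, Acsl1, Lpin1 and Plin2, and below them for Elovl2, Fads1 and Pnpla3.

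Elongases add 2-carbon units from malonyl-CoA to chains already made. None of the 4 tested elongases was called higher with ChREBPβ, and 2 were called lower. Elovl2, which acts on long polyunsaturated chains, went from 108–119 CPM to 82.9–87.1 at 2 mM (log2 fold change -0.43, edgeR adjusted p = 4.88e-08) and from 116–118 to 87.3–88.6 at 11 mM (-0.41, adjusted p = 1.06e-07). Elovl7 went from 32.6–37.5 to 26.0–26.7 CPM (-0.41, adjusted p = 6.77e-06) and from 33.6–36.5 to 24.5–26.3 (-0.48, adjusted p = 8.93e-07). Elovl1, an elongase of very long saturated chains, was higher in every ChREBPβ library but stayed under 1.2-fold (0.21 and 0.16, adjusted p = 0.00123 and 0.00865). Elovl5, whose window holds the E-box 212 bases before the start, was not called at either concentration (0.07 and -0.14, adjusted p = 0.247 and 0.0236). Elovl6, the elongase that extends palmitate, had 0 to 2 counts per library.

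Desaturases put double bonds into the chain. Scd2, the stearoyl-CoA desaturase with far more reads than Scd here, rose from 1856–1934 CPM to 2443–2620 at 2 mM (1.34-fold, edgeR adjusted p = 1.72e-07) and from 2076–2269 to 2720–3060 at 11 mM (1.32-fold, adjusted p = 3.84e-07). Scd, its close paralog, had 2, 3 and 0 counts in GFP cells at 2 mM and 11, 4 and 4 at 11 mM, beside 15, 43 and 26 with ChREBPβ at 2 mM and 40, 30 and 39 with ChREBPβ at 11 mM. It was also called higher in both comparisons, and the ratio of its summed and scaled counts was 11.1 at 2 mM (95% interval 4.59 to 35.2) and 4.37 at 11 mM (2.67 to 7.54), where the exact binomial intervals cover counting error only. Set against Scd2, it reached 0 to 0.117 counts per 1000 Scd2 counts with GFP and 0.183 to 0.314 with ChREBPβ, and how reads shared by such near-identical genes were assigned is not known, so its values are uncertain.

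Fads1 and Fads2 are neighbouring desaturases of polyunsaturated chains. Fads1 fell from 284–311 CPM to 209–233 at 2 mM (log2 fold change -0.42, edgeR adjusted p = 1.57e-06) and from 267–269 to 189–221 at 11 mM (-0.41, adjusted p = 2.78e-06). Fads2 was not called, with log2 fold changes of -0.05 (adjusted p = 0.38) and -0.16 (adjusted p = 0.00872).

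The acyl-CoA synthetases activate free fatty acids before they can be used. Acsl1 rose from 61.6–63.7 CPM to 80.9–85.2 at 2 mM (1.31-fold, edgeR adjusted p = 3.42e-07) and from 65.4–68.1 to 92.2–99.2 at 11 mM (1.41-fold, adjusted p = 1.11e-08). Acsl3, which sits on the endoplasmic reticulum and nascent droplets, rose from 43.6–46.2 to 54.0–58.3 CPM (1.27-fold, adjusted p = 2.42e-05) and from 48.9–52.6 to 57.7–65.4 (1.23-fold, adjusted p = 9.96e-05), but with library totals it stayed under 1.2-fold in both comparisons (log2 fold changes 0.25 and 0.22). Acsl4, which prefers arachidonate, fell from 150–171 to 118–124 CPM (log2 fold change -0.40, adjusted p = 9.49e-07) and from 148–161 to 113–119 (-0.38, adjusted p = 2.54e-06). Acsl5 was not called (-0.03 and -0.04, adjusted p = 0.499 and 0.473).

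Assembly of triglyceride runs from the glycerol-3-phosphate acyltransferase Gpam through the acyltransferases Agpat1 to Agpat3 and the lipins to Dgat1 and Dgat2, which add the last chain. Among these 8 genes only Lpin1 was called with ChREBPβ, at either concentration. Lpin1, a phosphatidate phosphatase that also acts as a transcriptional coregulator, had 18.6, 19.2 and 18.3 CPM in GFP cells at 2 mM and 22.3, 21.8 and 19.8 CPM at 11 mM. The ChREBPβ libraries were at 36.6, 31.7 and 36.0 CPM at 2 mM and at 37.4, 36.4 and 36.2 at 11 mM, all above the highest GFP library. It rose 1.86-fold at 2 mM (log2 fold change 0.89 ± 0.07 SE, edgeR adjusted p = 4.76e-10) and 1.72-fold at 11 mM (log2 fold change 0.78 ± 0.06 SE, adjusted p = 2.12e-09).

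For the other assembly genes the log2 fold changes lay between -0.26 (Agpat2) and 0.21 (Gpam) at 2 mM and between -0.13 (Dgat1) and 0.18 (Agpat3) at 11 mM. Gpam (0.21, adjusted p = 0.00254), Agpat3 (0.10, adjusted p = 0.0348), Lpin2 (0.16, adjusted p = 0.0256) and Agpat2 (-0.26, adjusted p = 0.00829) passed the p threshold at 2 mM with changes under 1.2-fold, as Agpat1 (0.17, adjusted p = 0.00436) and Agpat3 (0.18, adjusted p = 0.0012) did at 11 mM. Agpat2 and Dgat2 were called lower at 2 mM when libraries were scaled by their totals (log2 fold changes -0.36 and -0.27). Agpat2 was near the limit of 1.2-fold, and library c of ChREBPβ at 2 mM stood at 28.1 CPM while the lowest of its group was at 21.6. Without that library its log2 fold change was -0.38 and it was called lower, as it was without library a of GFP (-0.27).

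Plin2 coats small lipid droplets and rises in many cells when fat is stored. In GFP cells it had 6.61, 6.62 and 7.34 CPM in low glucose and 7.48, 6.16 and 6.68 CPM in high glucose. With ChREBPβ it was at 12.3, 12.4 and 12.05 CPM at 2 mM and at 11.6, 12.4 and 12.9 at 11 mM, so that no ChREBPβ library reached down to a GFP library. The increase was 1.79-fold at 2 mM (log2 fold change 0.84 ± 0.09 SE, edgeR adjusted p = 1.25e-07) and 1.81-fold at 11 mM (log2 fold change 0.86 ± 0.08 SE, adjusted p = 5.75e-08). No window was given for the increased members Fasn and Acaca, so they could not be searched. Among the 9 members with a window that increased at both concentrations, only that of Plin2 held the E-box. Plin3, a droplet protein of the same family, had 12, 0 and 1 counts with GFP at 2 mM and 0 or 1 in every other library.

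The lipases are Pnpla2, the main triglyceride lipase, Pnpla3, a droplet protein with lipase and acyltransferase activity, and Lipe, hormone-sensitive lipase. In GFP cells Pnpla3 had 10.2, 10.5 and 11.1 CPM in low glucose and 10.5, 9.93 and 11.1 CPM in high glucose. It was lower in every ChREBPβ library, at 5.94, 6.88 and 6.93 CPM at 2 mM and at 6.72, 6.40 and 6.11 at 11 mM. It fell to 0.627 times the GFP level at 2 mM (log2 fold change -0.67 ± 0.09 SE, edgeR adjusted p = 2.71e-06) and to 0.610 times at 11 mM (-0.71 ± 0.09 SE, adjusted p = 9.92e-07). Lipe was at 4.34 to 7.59 CPM over all libraries and was not called (0.27 and 0.17, adjusted p = 0.125 and 0.338). Pnpla2 had 0 to 18 counts per library, too few for a change to be detectable (adjusted p = 0.901 and 0.327).

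Few of these genes were called with glucose alone at the limit of 1.2-fold. Raising it from 2 to 11 mM in GFP cells called 2 of the 33 tested members, Acaca and Elovl5, both higher, where 20.2% of all tested genes were called and 10.2% were called higher. Acaca rose 1.65-fold (log2 fold change 0.72 ± 0.06 SE, edgeR adjusted p = 5.13e-08) from the values given above. Elovl5 rose from 35.3–39.4 CPM to 47.5–48.8 CPM (1.27-fold, adjusted p = 2.72e-05). The median log2 fold change of the tested members was 0.07, against -0.0024 over all tested genes. The groups did not overlap for 14 members, 12 of them higher, beside 42% of all tested genes.

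A further 9 members passed the p threshold with glucose in GFP cells at less than 1.2-fold, and all 9 were on the higher side. Without the fold limit, 11 of the 33 tested members passed, beside 5030 of the 14669 tested genes. The direction of these further genes was not counted. They were Mid1ip1 (log2 fold change 0.26, edgeR adjusted p = 2.73e-05), Acly (0.25, adjusted p = 1.73e-05), Lpin2 (0.21, adjusted p = 0.00734), Fasn (0.20, adjusted p = 0.0181), Elovl1, Scd2, Lpin1, Acsl3 and Me1 (0.13 to 0.19). Library c of the GFP group at 2 mM held the highest Acly and Fasn values of its group, and without it both were called (0.27 and 0.29), which made 4 members in all. Mid1ip1 was called without library b of GFP at 2 mM or at 11 mM (0.27 and 0.29). No member was called lower. The ratio of the scaled Scd counts was 2.71 (95% interval 0.980 to 9.30).

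In ChREBPβ cells the same rise in glucose called 0 of the 33 tested members by edgeR and 0 by DESeq2. Over all tested genes 3.87% were called. By edgeR 11 members had an unadjusted p under 0.05, and how many of all tested genes had one was not counted. Without the fold limit 2 members were called, beside 1100 of the 14669 tested genes. Acsl1 (log2 fold change 0.20, adjusted p = 0.00693) and Scd2 (0.18, adjusted p = 0.0197) passed the p threshold at less than 1.2-fold. The groups did not overlap for 13 members, 12 higher and Slc25a1 lower, beside 28.9% of all tested genes, and the median log2 fold change was 0.05. The Scd ratio was 1.07 (95% interval 0.794 to 1.43).

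**Figure D3:**
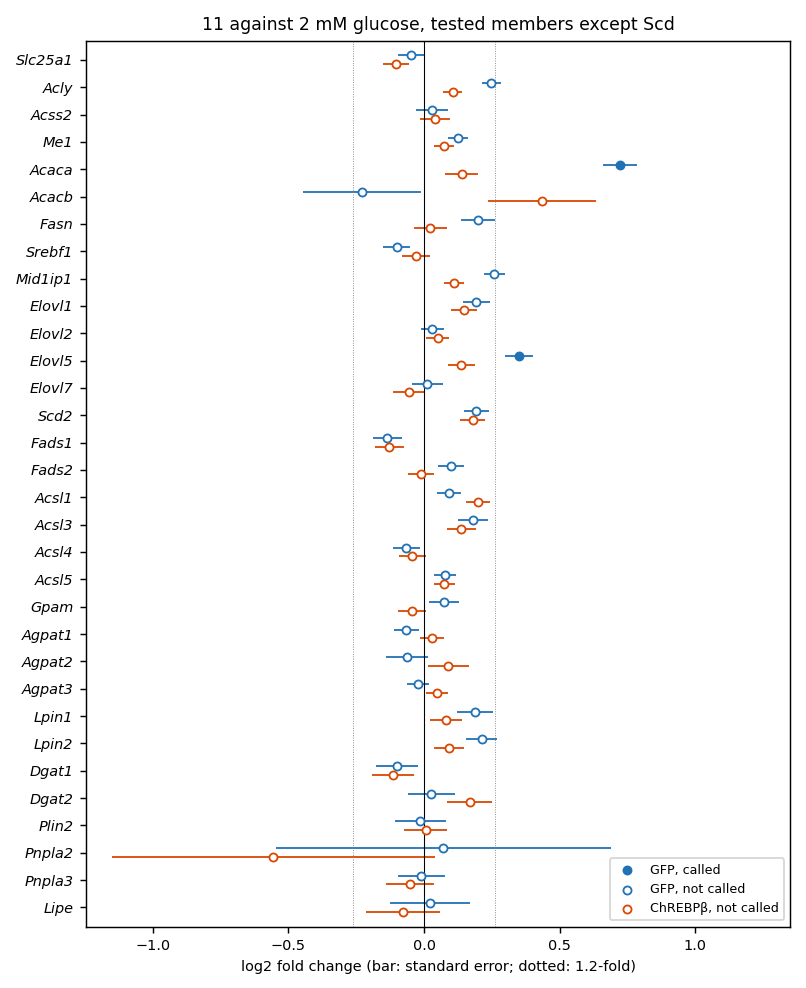
Log2 fold change of 11 mM against 2 mM glucose (horizontal axis) for the 32 tested members other than Scd, in GFP cells (blue) and ChREBPβ cells (orange). Bars are standard errors, filled points are called and dotted lines mark 1.2-fold; only Acaca and Elovl5 in GFP cells are filled, and Pnpla2 has the widest bars.

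The interaction asked whether the change with ChREBPβ differed between the glucose concentrations. Acaca alone was called among the tested members, where 6.31% of all tested genes were called. Its log2 fold change with ChREBPβ was lower at 11 mM than at 2 mM by a difference of -0.58 (± 0.09 SE, edgeR adjusted p = 0.000211). In group means, Acaca went from 103 ± 7.70 to 170 ± 14.4 CPM with glucose in GFP cells and from 521 ± 8.94 to 573 ± 40.7 CPM in ChREBPβ cells (SD, n = 3). The next smallest adjusted p-values belonged to Elovl5 (difference -0.21, adjusted p = 0.0772), Acly (-0.14, adjusted p = 0.09) and Mid1ip1 (-0.15, adjusted p = 0.101). The median difference over the tested members was -0.04, against -0.0064 over all tested genes. Without library c of GFP at 2 mM, Fasn was called as well (difference -0.27).

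Around the 36 members a further list of 64 genes covered NADPH supply, SREBP processing, malonyl-CoA control, the elongation cycle, desaturation partners, other acyl-CoA synthetases, glycerolipid assembly, droplet proteins, lipolysis and thioesterases. Of these 54 were tested. With ChREBPβ at 2 mM 15 were called higher and 13 lower (51.9% called, beside 44.1% of all tested genes, median log2 fold change -0.01), and at 11 mM 11 were called higher and 13 lower (44.4% called, beside 33.4%). Raising glucose in GFP cells called 7 higher and 4 lower, 20.4% beside 20.2% of all tested genes. In ChREBPβ cells it called Hsd17b12 alone, the ketoacyl-CoA reductase of the elongation cycle (log2 fold change 0.27, edgeR adjusted p = 0.000437).

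The largest increases of this list were those of G0s2 and Mgll, which act in lipolysis. G0s2, an inhibitor of the triglyceride lipase Pnpla2, had 7.61, 7.84 and 7.28 CPM in GFP cells at 2 mM and 23.6, 19.4 and 25.5 CPM at 11 mM. With ChREBPβ it was at 161, 153 and 164 CPM at 2 mM and at 135, 150 and 160 at 11 mM. Every ChREBPβ library was thus above every GFP library, and the GFP groups did not overlap each other. On the log2 scale it rose with ChREBPβ by 4.39 ± 0.09 SE at 2 mM (edgeR adjusted p = 1.18e-18) and by 2.69 ± 0.08 SE at 11 mM (adjusted p = 3.37e-16), and with glucose in GFP cells by 1.59 ± 0.10 SE (adjusted p = 2.71e-10).

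Mgll, which cleaves monoacylglycerol in the last step of lipolysis, was at 1.14 to 1.76 CPM with GFP and 9.43 to 10.5 with ChREBPβ at 2 mM and at 3.12 to 3.78 and 11.0 to 12.1 at 11 mM. It rose by 2.77 on the log2 scale at 2 mM (edgeR adjusted p = 6.95e-13), by 1.72 at 11 mM (adjusted p = 5.77e-11) and by 1.24 with glucose in GFP cells (adjusted p = 2.99e-06). Idh1, the cytosolic isocitrate dehydrogenase that supplies NADPH, went the other way. It was at 92.2 to 99.8 CPM with GFP and 38.4 to 44.6 with ChREBPβ at 2 mM, and its log2 fold change was -1.23 at 2 mM (adjusted p = 4.38e-13), -0.92 at 11 mM (adjusted p = 5.40e-11) and -0.56 with glucose in GFP cells (adjusted p = 3.13e-07).

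Cidea, a protein of droplet fusion, was at 1.67 to 2.83 CPM with GFP and 0.784 to 1.26 with ChREBPβ over both concentrations and fell by 1.16 (edgeR adjusted p = 0.000368) and by 1.01 (adjusted p = 0.00105) on the log2 scale. Gpat3, an acyltransferase of the endoplasmic reticulum, was at 5.98 to 6.92 against 2.79 to 3.83 CPM at 2 mM (log2 fold change -0.86, adjusted p = 8.27e-06). Plin5, a perilipin, was not called at 2 mM (log2 fold change -0.45, adjusted p = 0.441, means 0.202 CPM with GFP and 0.143 with ChREBPβ). It was called higher at 11 mM (1.12, adjusted p = 0.0249) at 0.107 to 0.221 CPM with GFP and 0.324 to 0.384 with ChREBPβ, but DESeq2 did not call it (adjusted p = 0.064), nor did edgeR without the filter on low counts (adjusted p = 0.111) or without library b or c of either group (adjusted p = 0.0565 to 0.108). With glucose in GFP cells the list's remaining large changes were Hilpda, another inhibitor of Pnpla2, from 1.03–1.22 CPM to 2.36–2.92 (log2 fold change 1.203, adjusted p = 6.36e-05), and Prkaa2, a catalytic subunit of the AMP-activated kinase that phosphorylates acetyl-CoA carboxylase, from 34.7–48.3 to 63.5–65.5 CPM (0.67, adjusted p = 1.40e-06).

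**Figure D4:**
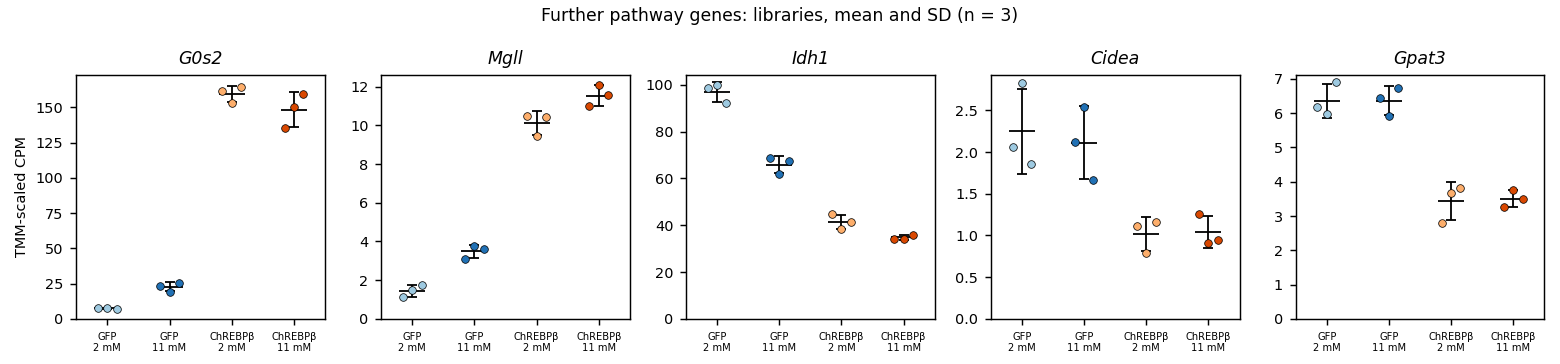
TMM-scaled CPM (vertical axes from 0) of 5 further pathway genes in the 3 libraries of each group (points), with the group mean and SD (horizontal line and bars). G0s2 and Mgll lie higher in all ChREBPβ libraries than in all GFP libraries, and Idh1, Cidea and Gpat3 lie lower.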

How the data were processed

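Total RNA of INS-1 832/13 cells was amplified and sequenced by the study, and the authors deposited raw read counts per gene for 12 libraries without normalization, with 4 columns of group means that were not used here. Rnor_6.0 and edgeR are named in the submitters' processing notes, and the aligner and the counting program are not given in the sources used here. A row without a gene name (0.0043% to 0.0060% of a library's counts) did not enter totals or tests. Columns of single samples other than these 12 numbered 0.

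Counts were analysed with R 4.3.3, edgeR 4.0.16 and DESeq2 1.42.0, and plotted with Python 3.11.15. Genes were filtered with filterByExpr by group and scaled by TMM, and 1 quasi-likelihood fit with a term for the group took all 12 libraries. The contrasts were ChREBPβ against GFP at 2 and at 11 mM, 11 against 2 mM glucose with each virus, and the difference of the ChREBPβ effects (the interaction). Calls needed a Benjamini-Hochberg adjusted p under 0.05 over all tested genes and at least 1.2-fold, the minimum used in the study. CPM as printed are counts divided by the TMM-scaled total, times 1e+06.

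Every member was named, with the value of each library for those called with at least 1.5-fold change in a comparison or called in the interaction. Scd is given as a ratio with an exact interval, because no library of GFP at 2 mM exceeded 3 counts. Of the further list, the 5 genes with the largest called change in each ChREBPβ comparison and with glucose in GFP cells were named. The members and lists were chosen with earlier results of these data known. Libraries of the same group differed beyond sampling noise (chi-square per degree of freedom 3.13 to 17.5). Since RNA was amplified, intervals cover counting error only. Alternatives were DESeq2, RLE factors, library totals, no filter, a replicate block, no minimum fold change, fits of only the 2 groups of a comparison, and the omission of each library in turn.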

Additional observations from a re-analysis of the deposited data

Results flagged for a closer look

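The change with ChREBPβ differed between 11 and 2 mM glucose, by edgeR's interaction term, for 1 member and for 5 of the further pathway genes named in the report. The further genes were named for large changes with ChREBPβ or with glucose in GFP cells. Those comparisons share terms with the interaction, so the choice itself favoured calls among them. Over the 54 tested genes of the further list 7 were called (13.0%), beside 6.31% of all tested genes. Acaca rose with ChREBPβ by 2.34 on the log2 scale at 2 mM and by 1.75 at 11 mM, a difference of -0.58 (adjusted p = 0.000211). It stayed between -0.65 and -0.52 when any library was left out, and it was called each time.

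For G0s2 the difference was -1.70 (adjusted p = 8.10e-09) and for Mgll it was -1.05 (adjusted p = 0.000868), and for both the level in GFP cells was higher at 11 mM than at 2 mM. Prkaa2 had a difference of -0.45 (adjusted p = 0.0117). Idh1, which fell with ChREBPβ at both concentrations, had a difference of 0.31 (adjusted p = 0.0219), but it was not called without library b of GFP at 2 mM, b or c of ChREBPβ at 2 mM or c of ChREBPβ at 11 mM (0.25 to 0.31). Hilpda, at 1.03 to 2.92 CPM over all libraries, had a difference of -0.85 (adjusted p = 0.0463), which was not called with RLE factors (-0.84) or in 10 of the 12 fits that left out a library.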

How the results depend on the processing

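The 84 results for single genes were those called in the main fit or in an alternative. Of these, 83 kept their direction and their side of the threshold with DESeq2, 82 with RLE factors, 78 with library totals and 82 without the filter on low counts. Without a minimum fold change 58 did, and the other 26 were called in addition. No result reversed its direction under any alternative. Leaving out a library changed the side of the threshold in 30 of 1008 cases. The median log2 fold change of the members moved with library totals to 0.0567 (ChREBPβ at 2 mM), 0.0425 (ChREBPβ at 11 mM) and 0.0409 (glucose in GFP cells), where the median of all tested genes moved from -0.02 to -0.12, from -0.02 to -0.10 and from -0.0024 to -0.03. For glucose in GFP cells it moved to 0.0258 with only the 2 groups compared. For glucose in GFP cells, 4 members were called without the filter. Beside Acaca and Elovl5 these were Mid1ip1 (log2 fold change 0.26) and a member with too few reads for the main test. The members with too few reads were Thrsp, Elovl6 and Plin3, with at most 12 counts in a library, so that call is uncertain. Without a minimum fold change 11 members and 5030 genes were called. For glucose in ChREBPβ cells, 2 members and 1100 genes were called without a minimum fold change. Leaving out a library gave a median of 0.12 to 0.16 for ChREBPβ at 2 mM, 2 to 4 members called for glucose in GFP cells, 1 to 2 for the interaction, and a median difference of -0.0695 to -0.0130 for the interaction. The changes of scaling and fold limit act through their own construction, and the cause of the other shifts was not tested. Low counts limit Scd, Pnpla2, Acacb and the 3 members that were not tested.

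No clear pairing of the libraries by replicate letter was seen, although weak correlations cannot exclude one. Deviations of the 18 same-letter pairs correlated between -0.11 and 0.06 (median 0.02). Those of the 36 pairs with other letters correlated between -0.09 and 0.16 (median -0.01). Of the 12 libraries 6 correlated best with their own letter. With the replicate block, 17 members were called at 2 mM (Agpat2 added, log2 fold change -0.27) and 16 at 11 mM, and 6449 and 4861 genes.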
